A study of Mus musculus with 26 samples.

Results

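Genes of antigen presentation by MHC class I were followed in cultured mouse leukemia cells of the MLL-AF9 type, in MA9+SETDB1 against MA9+EV. The 10 genes were taken by mouse symbol from a fixed list and each matched 1 Ensembl identifier among the 54146 genes counted in each library. They are the class I heavy chain genes H2-K1 and H2-D1, the light chain gene B2m, the peptide handling genes Tap1, Tap2, Tapbp and Erap1, the immunoproteasome genes Psmb8 and Psmb9, and the transactivator gene Nlrc5. In both arms, lineage-negative mouse bone marrow cells carried a retrovirus with MLL-AF9 (MA9), the product of a chromosome translocation in human leukemia. MA9+SETDB1 cells also received SETDB1, an enzyme that places methyl groups on histone H3 lysine 9, and MA9+EV cells received the MSCVpuro empty vector (EV). Both arms were grown for 8 to 12 weeks in medium with IL-3 and SCF and were selected in puromycin for about 3 to 6 weeks. Poly-A RNA was sequenced from 3 libraries per arm, and the series calls them biological replicates. Whether these came from separate transductions, and the mouse strain, are not given in the sources used here. The other 20 of the 26 samples of the series, from chromatin immunoprecipitation and ATAC-seq, were not analysed here.

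MHC class I molecules show the cell's own peptides to CD8 T cells at the surface of nearly every nucleated cell. The proteasome cuts proteins into peptides, and after interferon exposure or in many blood cells the subunits encoded by Psmb8, Psmb9 and Psmb10 replace their constitutive counterparts to form the immunoproteasome. The TAP transporter moves the peptides into the endoplasmic reticulum, where tapasin and chaperones load them onto a heavy chain paired with beta-2 microglobulin. NLRC5 is known to switch on class I heavy chain, B2m, Tap1 and Psmb9 transcription through a composite promoter element, and interferon acts on the same genes through IRF1 and other factors.

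The promoters of H2-K1, H2-D1 and B2m, the chain genes that were all higher in MA9+SETDB1, and of Psmb9, which was lower, are shown first. They carry short letter matches to elements known to control class I genes. Whether any match is a working site was not tested. Each is 300 bases of GRCm38.p6 from RefSeq, 250 before to 50 after the annotated start, written in the direction of transcription. H2-K1 lies on the minus strand at chr17:34000284-34000583, in 1 of its 2 annotated windows. H2-D1 lies on the plus strand at chr17:35262844-35263143, B2m on the plus strand at chr2:122147437-122147736, and Psmb9 on the minus strand at chr17:34187281-34187580. Capitals mark the matches described after the sequences.
H2-K1: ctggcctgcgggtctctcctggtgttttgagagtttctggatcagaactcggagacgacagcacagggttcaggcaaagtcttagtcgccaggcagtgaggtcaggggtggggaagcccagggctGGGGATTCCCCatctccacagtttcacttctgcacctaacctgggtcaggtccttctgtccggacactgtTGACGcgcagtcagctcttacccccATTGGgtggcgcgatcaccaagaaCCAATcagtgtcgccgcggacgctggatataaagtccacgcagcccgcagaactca
H2-D1: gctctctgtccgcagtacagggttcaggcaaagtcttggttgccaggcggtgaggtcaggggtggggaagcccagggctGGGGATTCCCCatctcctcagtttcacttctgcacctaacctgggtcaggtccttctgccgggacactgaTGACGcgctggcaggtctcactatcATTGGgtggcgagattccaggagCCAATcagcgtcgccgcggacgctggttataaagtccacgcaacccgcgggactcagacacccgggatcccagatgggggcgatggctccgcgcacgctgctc
B2m: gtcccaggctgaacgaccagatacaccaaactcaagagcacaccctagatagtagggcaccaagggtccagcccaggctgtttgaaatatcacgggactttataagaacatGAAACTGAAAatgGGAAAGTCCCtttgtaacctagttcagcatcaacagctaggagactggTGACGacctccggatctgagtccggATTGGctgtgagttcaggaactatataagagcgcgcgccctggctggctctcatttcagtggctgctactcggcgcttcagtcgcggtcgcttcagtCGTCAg
Psmb9: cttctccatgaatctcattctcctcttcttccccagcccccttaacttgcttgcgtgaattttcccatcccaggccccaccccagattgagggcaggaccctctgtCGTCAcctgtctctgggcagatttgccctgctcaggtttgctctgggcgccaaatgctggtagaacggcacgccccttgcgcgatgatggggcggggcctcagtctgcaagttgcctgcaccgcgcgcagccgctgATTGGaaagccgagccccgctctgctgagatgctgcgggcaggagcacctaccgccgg
Motifs were searched as letters on both strands. They were CCAAT, the box bound by NF-Y, TGACG, a CRE half-site, the core of an interferon-stimulated response element (ISRE), which is GAAA, any 2 bases and GAAA, TTCNNNGAA, the gamma-activated site (GAS), and the kappaB site. H2-K1, H2-D1 and B2m each held a kappaB match, a TGACG and a CCAAT box in that order, and TGACG began 25 bases before a CCAAT box in all 3. In H2-K1 and H2-D1 a pair of kappaB matches overlapped. B2m also held an ISRE match, starting at position -139 from the start site. Tapbp, the other member that was higher in MA9+SETDB1, held CCAAT but no TGACG and no kappaB match. The same was so for H2-T23, a heavy chain gene that is no member and was also higher. Its window held an ISRE match as well. The Psmb9 window held a TGACG and a CCAAT box 136 bases apart, and shared 275 of its 300 bases with the window of Tap1, which reads the other way. The annotated Tap1 and Psmb9 genes have 225 bases between them and run in opposite directions. Of the 8 members with a window, 6 held CCAAT, 5 held TGACG, 3 held kappaB, 2 held the ISRE core (B2m and Erap1) and 1 held GAS (Psmb8). A search for exact letters misses sites that vary from them. The lack of an ISRE match in H2-K1, H2-D1 or any other window therefore does not show that no interferon element is there. Among all 32851 windows of the same length the shares were 37.4% for CCAAT, 20.8% for TGACG, 5.8% for kappaB, 3.44% for ISRE and 8.3% for GAS. The CCAAT and TGACG matches of Psmb9 and Tap1 are the same sites read from either side and were counted for both genes. H2-K1 and H2-D1 are close paralogs, and their windows share much of the sequence around the matches. The 8 members are thus not independent beside these shares. The share of all windows with TGACG 25 bases before a CCAAT box was not counted. Tap2 and Nlrc5 had no window in the table.

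Library depth, as the sum of gene counts, ranged over 18070482 to 22561757. Setdb1 itself had 475, 605 and 607 CPM (TMM-scaled counts as defined with the processing, a level that sets a library's depth aside) in MA9+SETDB1 replicates 1, 2 and 3, against 105, 108 and 109 CPM in MA9+EV replicates 1, 2 and 3. Replicate 1 stood apart from replicates 2 and 3 in both arms: the SD of the log2 CPM difference between libraries was 0.775 and 0.781 against 0.300 in MA9+SETDB1, and 0.671 and 0.675 against 0.283 in MA9+EV. Without replicate 1 of both arms the 2 libraries left in each arm are close to each other. In that fit 5314 genes of 13380 tested were called higher and 5285 lower. Most genes are thus called there, and a call in that fit says little about a single gene. As leukocytes, both arms had Ptprc, Spi1, Laptm5 and Coro1a, but Kit was at 0.183 to 2.46 CPM in the MA9+SETDB1 libraries, against 112 to 118 CPM in MA9+EV. Across all genes, 6951 of 12986 tested (53.5%) were called at an edgeR adjusted p under 0.05, so a call alone does not set a gene apart here. Of these, 3554 were higher and 3397 lower, and with library totals as the only scaling 2825 were higher and 4585 lower.

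In MA9+SETDB1 cells the 10 genes of class I presentation did not move one way. The 3 chain genes and Tapbp were higher, at 2.04-fold to 2.62-fold, and Tap1, Tap2, Erap1, Psmb8, Psmb9 and Nlrc5 were lower. In bulk RNA, fewer cells of a type and less RNA per cell cannot be told apart. All 10 members were tested, 4 were called higher and 6 lower, against 27.4% higher and 26.2% lower among all genes tested. Their median log2 fold change was -1.31, and that of all genes tested -0.01. The CPM ranges of the arms did not overlap for any of the 10, which was also so for 64.6% of all genes tested.

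**Figure D1:**
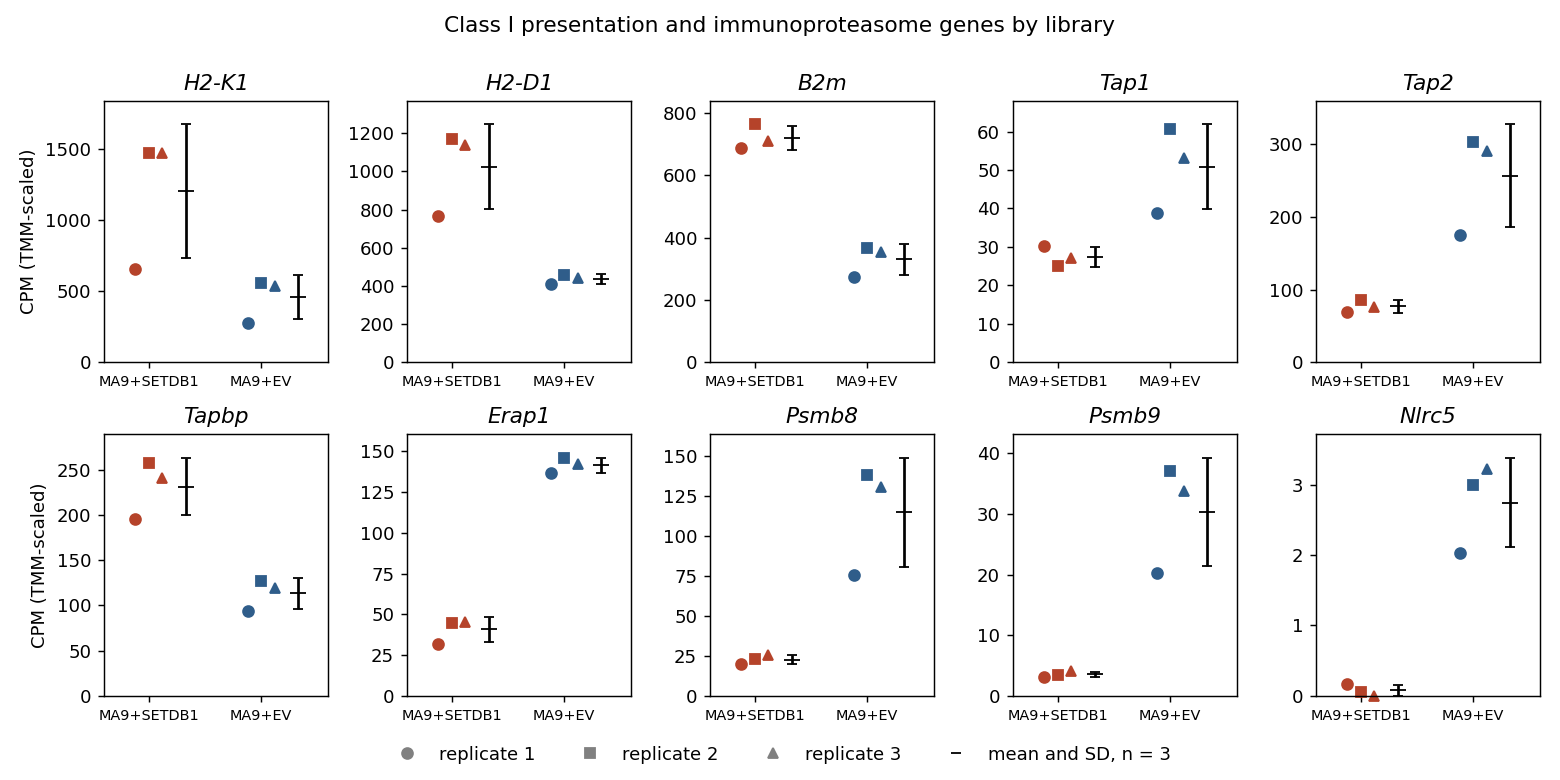
CPM of the 10 genes in each library, MA9+SETDB1 left and MA9+EV right, each panel on its own linear axis from 0, with the mean and SD of 3 libraries beside the points. H2-K1, H2-D1, B2m and Tapbp are higher in every MA9+SETDB1 library than in any MA9+EV library, and the other 6 genes are lower. Replicate 1 of each arm is the lowest library of its arm for H2-K1, where the values run from 659 to 1476 CPM in MA9+SETDB1 and from 279 to 561 CPM in MA9+EV.

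H2-K1 and H2-D1 encode the classical heavy chains that bind the peptide. H2-K1 (ENSMUSG00000061232.15, GRCm38 chromosome 17, 33996012 to 34000619) had 659, 1475 and 1476 CPM in MA9+SETDB1 replicates 1, 2 and 3, against 279, 561 and 538 CPM in MA9+EV replicates 1, 2 and 3. Replicate 1 was the low library of each arm, and the lowest MA9+SETDB1 library was above the highest MA9+EV library. The log2 fold change was 1.39 (standard error 0.39, edgeR adjusted p = 0.0217). This call was lost without MA9+EV replicate 1 (edgeR adjusted p = 0.0514), without MA9+SETDB1 replicate 2 (0.0667) or 3 (0.0677), and when replicates 2 and 3 within each arm were summed (0.108), while the log2 fold change stayed between 1.12 and 1.70. Without replicate 1 of both arms it was 1.44. With the replicate number as a block in the fit, H2-K1 stayed called, at 1.36 (edgeR adjusted p = 0.000739).

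H2-D1 (ENSMUSG00000073411.11, chromosome 17, 35263094 to 35267497) had 767, 1166 and 1136 CPM in MA9+SETDB1 replicates 1, 2 and 3, against 410, 460 and 442 CPM in the MA9+EV libraries. It rose by 1.23 on the log2 scale (standard error 0.19, edgeR adjusted p = 0.00158). Class I heavy chain genes are close paralogs, and between 18.4% and 20.2% of entries per library were reads with more than 1 alignment, which were counted for no gene, so the level of any 1 heavy chain is uncertain. These genes also differ in sequence between mouse strains, and with the strain not given, how well reads of H2-K1 and H2-D1 matched the GRCm38 alleles was not tested.

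B2m (ENSMUSG00000060802.8, chromosome 2, 122147687 to 122153082) encodes beta-2 microglobulin, the light chain shared by all class I molecules. It had 689, 764 and 711 CPM in the MA9+SETDB1 libraries, against 274, 367 and 353 CPM in MA9+EV. The gap between the arms was wider than the spread within either, with a log2 fold change of 1.12 (standard error 0.15, edgeR adjusted p = 0.000810). Patl2, which overlaps B2m on the map, had 333 counts over the MA9+SETDB1 libraries and 0 over MA9+EV, against 38560 and 22481 for B2m. The ratio of B2m counts to the summed counts of H2-K1 and H2-D1 was 0.483, 0.289 and 0.272 in MA9+SETDB1, against 0.398, 0.359 and 0.360 in MA9+EV. The arms overlapped, since MA9+SETDB1 replicate 1 was above and replicates 2 and 3 were below all MA9+EV libraries. The mean log2 ratio differed by -0.14 (exact permutation test, two-sided p = 0.6; n = 3 and 3), by -0.41 without MA9+SETDB1 replicate 1, and turned to 0.0073 without MA9+SETDB1 replicate 3.

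Of 18 other H2 class I heavy chain genes listed, 15 were in the files and 7 passed the filter on low counts, of which 4 were called higher and none lower. The 8 left out had at most 0.426 CPM in any library. H2-T23, which encodes Qa-1, a nonclassical molecule that shows leader peptides of other class I chains to the NK cell receptor CD94/NKG2A, had 131, 204 and 229 CPM in the MA9+SETDB1 libraries, against 15.9, 31.3 and 25.8 CPM in MA9+EV. Its lowest MA9+SETDB1 library was above its highest MA9+EV library, and it rose by 2.95 on the log2 scale (standard error 0.32, edgeR adjusted p = 0.000353). H2-T10, H2-T22 and H2-T24 were called higher with log2 fold changes of 1.74, 0.93 and 1.02. With replicates 2 and 3 summed these 3 calls were lost, and that of H2-T24 also without MA9+SETDB1 replicate 2 or 3 or MA9+EV replicate 2 or 3 (adjusted p up to 0.185 over all alternatives). H2-Q4, H2-Q10 and H2-M3 were not called, with log2 fold changes of 0.45, 1.39 and -0.49. Without replicate 1 of both arms H2-Q4 and H2-Q10 were called higher and H2-M3 lower, and H2-Q10 was called higher also without MA9+SETDB1 replicate 1 alone, at 1.93.

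Class I-like genes outside the MHC, whose products present lipids or serve other tasks, had 1 of 7 members higher and 4 lower. Hfe, which encodes a regulator of iron uptake that also pairs with beta-2 microglobulin, had 0.915 ± 0.570 CPM in MA9+SETDB1 and 32.7 ± 3.08 CPM in MA9+EV (SD, n = 3 each). Cd1d2, a lipid-presenting paralog of Cd1d1, stood at 1.85 ± 0.552 CPM in MA9+SETDB1 and 13.5 ± 5.49 CPM in MA9+EV. Both fell, with log2 fold changes of -5.17 for Hfe and -2.86 for Cd1d2 (edgeR adjusted p = 0.000110 and 0.00144). Procr, the endothelial protein C receptor gene, had 96 counts over MA9+SETDB1 and 3 over MA9+EV, a ratio of 40.7 (95% exact counting interval 13.5 to 201, counting error only). Azgp1 had 0 counts in MA9+SETDB1 and 64 in MA9+EV, at least 16.8-fold lower if the arm is set to a floor of 3 counts.

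Tap1 and Tap2 encode the paired chains of the TAP transporter. Tap2 (ENSMUSG00000024339.12, chromosome 17, 34204479 to 34216321) had 69.3, 86.5 and 75.8 CPM in the MA9+SETDB1 libraries, against 176, 304 and 291 CPM in MA9+EV. It fell by 1.73 on the log2 scale (standard error 0.22, edgeR adjusted p = 0.000811), and the MA9+EV value of replicate 1 was again the lowest of its arm. Tap1 (ENSMUSG00000037321.17, chromosome 17, 34187556 to 34197225) had 30.3, 25.0 and 27.1 CPM in the MA9+SETDB1 libraries, against 38.9, 60.6 and 53.1 CPM in MA9+EV. Its fall was the smallest of the 6 members that fell, at 0.89 on the log2 scale (standard error 0.18, edgeR adjusted p = 0.00607). With replicates 2 and 3 of each arm summed, Tap1 was not called (log2 fold change -0.78, edgeR adjusted p = 0.0812), and without replicate 1 of both arms its log2 fold change was -1.11.

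Tapbp (ENSMUSG00000024308.14, chromosome 17, 33919478 to 33929290) encodes tapasin, which holds empty class I molecules at the transporter. It moved against both transporter genes, with 196, 257 and 241 CPM in MA9+SETDB1 and 93.9, 127 and 119 CPM in MA9+EV (log2 fold change 1.03, standard error 0.16, edgeR adjusted p = 0.00179). Erap1 (ENSMUSG00000021583.7, chromosome 13, 74639573 to 74693205) encodes the aminopeptidase that trims peptides in the endoplasmic reticulum. It had 32.0, 45.0 and 45.5 CPM in the MA9+SETDB1 libraries, against 137, 146 and 142 CPM in MA9+EV. The MA9+EV libraries lay within 10 CPM of each other, and Erap1 fell by 1.79 on the log2 scale (standard error 0.15, edgeR adjusted p = 0.000140). Cast overlaps it on the map and had 18324 counts over MA9+SETDB1 and 7238 over MA9+EV. The sources used here do not give the strand setting with which reads were counted.

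Among 10 other genes of chaperoning and peptide loading, 3 were called higher and 1 lower. Tapbpl, which encodes TAPBPR, a tapasin relative that edits the bound peptides, had 6.49, 7.37 and 6.39 CPM in the MA9+SETDB1 libraries, against 47.7, 30.8 and 28.8 CPM in MA9+EV. It thus went against Tapbp, falling by 2.41 on the log2 scale (standard error 0.23, edgeR adjusted p = 0.000237). Pdia3, the disulfide isomerase ERp57 of the loading complex, rose by 0.87 (edgeR adjusted p = 0.00850, not called with replicates 2 and 3 summed). Erp29 and Uggt1 were called higher by 0.55 and 0.41, but neither call held with library totals as the only scaling (edgeR adjusted p = 0.0631 and 0.218), nor that of Uggt1 with the replicate block (edgeR adjusted p = 0.0576). Calr, Canx and Hspa5 were not called, with log2 fold changes of 0.70, 0.21 and 0.01. Without replicate 1 of both arms all 3 were called higher, at 1.23, 0.38 and 0.42. Calr was also called with DESeq2, without MA9+SETDB1 replicate 1 and without MA9+EV replicate 1. Of 8 cytosolic peptidase genes, 2 were called higher and 3 lower. Prep, the prolyl endopeptidase gene, moved most (log2 fold change -1.37, edgeR adjusted p = 0.00163), then Nln and Blmh at -0.65 and -0.60, both lost with replicates 2 and 3 summed.

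Psmb8 and Psmb9 encode catalytic subunits of the immunoproteasome and fell more than any other members except Nlrc5. Psmb8 (ENSMUSG00000024338.14, chromosome 17, 34198195 to 34201454) had 19.9, 22.8 and 25.3 CPM in the MA9+SETDB1 libraries, against 75.4, 138 and 130 CPM in MA9+EV. Psmb9 (ENSMUSG00000096727.2, chromosome 17, 34182030 to 34187330) had 3.13, 3.41 and 4.05 CPM in the MA9+SETDB1 libraries, against 20.3, 37.1 and 33.7 CPM in MA9+EV. The MA9+SETDB1 libraries were close to each other for both genes, and MA9+EV replicate 1 was well below replicates 2 and 3. On the log2 scale Psmb8 fell by 2.33 (standard error 0.25, edgeR adjusted p = 0.000340). Psmb9 fell by 3.10 (standard error 0.28, edgeR adjusted p = 0.000170).

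Psmb10, the gene of the third immunoproteasome subunit and not one of the 10, was lower by less, at 24.4 ± 1.94 CPM in MA9+SETDB1 and 39.4 ± 3.20 CPM in MA9+EV (SD, n = 3 each; log2 fold change -0.69, standard error 0.12, edgeR adjusted p = 0.00328). The constitutive subunits that these 3 replace did not pass the test, with log2 fold changes of 0.31 for Psmb5, 0.36 for Psmb6 and 0.19 for Psmb7, the last turning to -0.05 with library totals as the only scaling. The smallest adjusted p of the 3 was that of Psmb6 (edgeR adjusted p = 0.0705), which was called with the replicate block (edgeR adjusted p = 0.0403). Without replicate 1 of both arms, a fit that calls most genes tested, all 3 were called higher, at 0.41 for Psmb5, 0.47 for Psmb6 and 0.41 for Psmb7. Without MA9+SETDB1 replicate 1 alone, Psmb5 at 0.51 and Psmb6 at 0.50 were called higher. The ratio of counts within a library needs no scaling between libraries, though it is not corrected for gene length, so its change between arms is what can be read.

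The Psmb8 to Psmb5 ratio was 0.487, 0.394 and 0.369 in MA9+SETDB1, against 1.96, 2.69 and 2.90 in MA9+EV. The Psmb9 to Psmb6 ratio was 0.0263, 0.0227 and 0.0240 in MA9+SETDB1, against 0.185, 0.323 and 0.285 in MA9+EV. The Psmb10 to Psmb7 ratio was 0.162, 0.135 and 0.146 in MA9+SETDB1, against 0.258, 0.281 and 0.269 in MA9+EV. In each of the 3 pairs every MA9+SETDB1 library was below every MA9+EV library, and the mean log2 ratio differed by -2.58, -3.41 and -0.87. For each pair the exact permutation test gave two-sided p = 0.1, the smallest that 3 against 3 libraries allow (0.133 adjusted over the 4 ratios tested, with that of B2m).

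**Figure D2:**
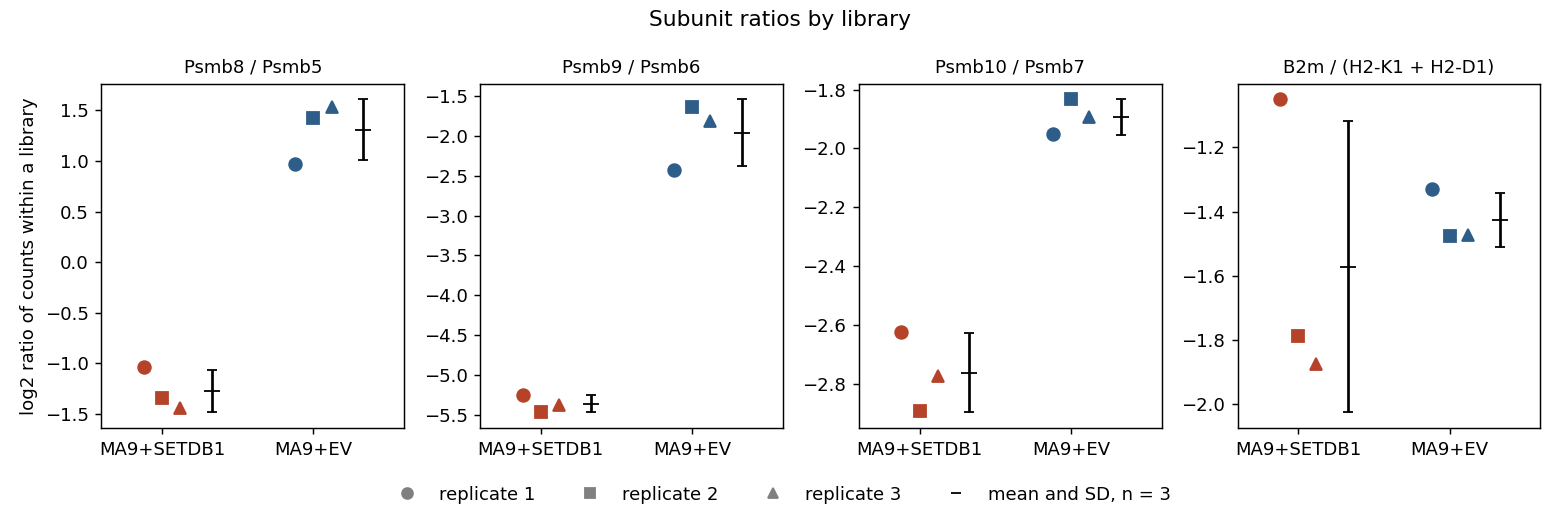
Log2 ratio of counts within each library for the 3 pairs of immunoproteasome and constitutive subunit genes and for B2m over H2-K1 plus H2-D1, MA9+SETDB1 left and MA9+EV right, with the mean and SD of 3 libraries. The proteasome pairs are separate between the arms, at -2.58, -3.41 and -0.87 on the log2 scale, whereas the arms overlap for B2m over its heavy chains. Each panel has its own axis.

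Genes of the PA28 activator, a cap of the proteasome that interferon is known to induce with the immunoproteasome, went against Psmb8, Psmb9 and Psmb10. Psme1 had 177 ± 11.3 CPM in MA9+SETDB1 and 78.6 ± 13.5 CPM in MA9+EV, and Psme2 had 71.9 ± 14.2 CPM in MA9+SETDB1 and 27.1 ± 4.34 CPM in MA9+EV (SD, n = 3 each). Both rose, by 1.17 and 1.41 on the log2 scale (edgeR adjusted p = 0.000732 and 0.00103). Psme3 and the assembly chaperone gene Pomp were not called, though both were called higher without replicate 1 of both arms, at 0.17 and 0.26. Psme4 was called lower by a log2 fold change of -0.38, a call lost without replicate 2 or 3 of either arm. Of 11 other subunit genes of the proteasome core, 2 were called higher and none lower, Psma7 with a log2 fold change of 1.00 (edgeR adjusted p = 0.00116) and Psmb3 with 0.61 (edgeR adjusted p = 0.0143, up to 0.172 over the alternatives). The median of these 11 was 0.18.

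Nlrc5 (ENSMUSG00000074151.13, chromosome 8, 94434335 to 94527272), the class I transactivator gene, was the member with the fewest reads. It had 3, 1 and 0 counts in MA9+SETDB1 replicates 1, 2 and 3, against 49, 72 and 64 counts in MA9+EV replicates 1, 2 and 3, or 0 to 0.168 CPM against 2.02 to 3.22 CPM. All MA9+EV libraries were clearly above all MA9+SETDB1 libraries. In normalized counts summed over the arms, Nlrc5 was 36.3-fold lower in MA9+SETDB1 (95% exact counting interval 14.0 to 135, which covers counting error only), and the fitted log2 fold change was -5.08 (standard error 0.68, edgeR adjusted p = 0.000920). The fitted value depended on single libraries, at -6.32 without MA9+SETDB1 replicate 1, -4.49 without MA9+SETDB1 replicate 3 and -6.49 without replicate 1 of both arms, and Nlrc5 stayed called in each. The lncRNA gene 9330175E14Rik, which overlaps it on the map, had 0 counts in MA9+SETDB1 and 26 in MA9+EV. Of the genes that NLRC5 is known to control, H2-K1, H2-D1 and B2m were higher in the same libraries, and Tap1 and Psmb9 were lower.

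**Figure D3:**
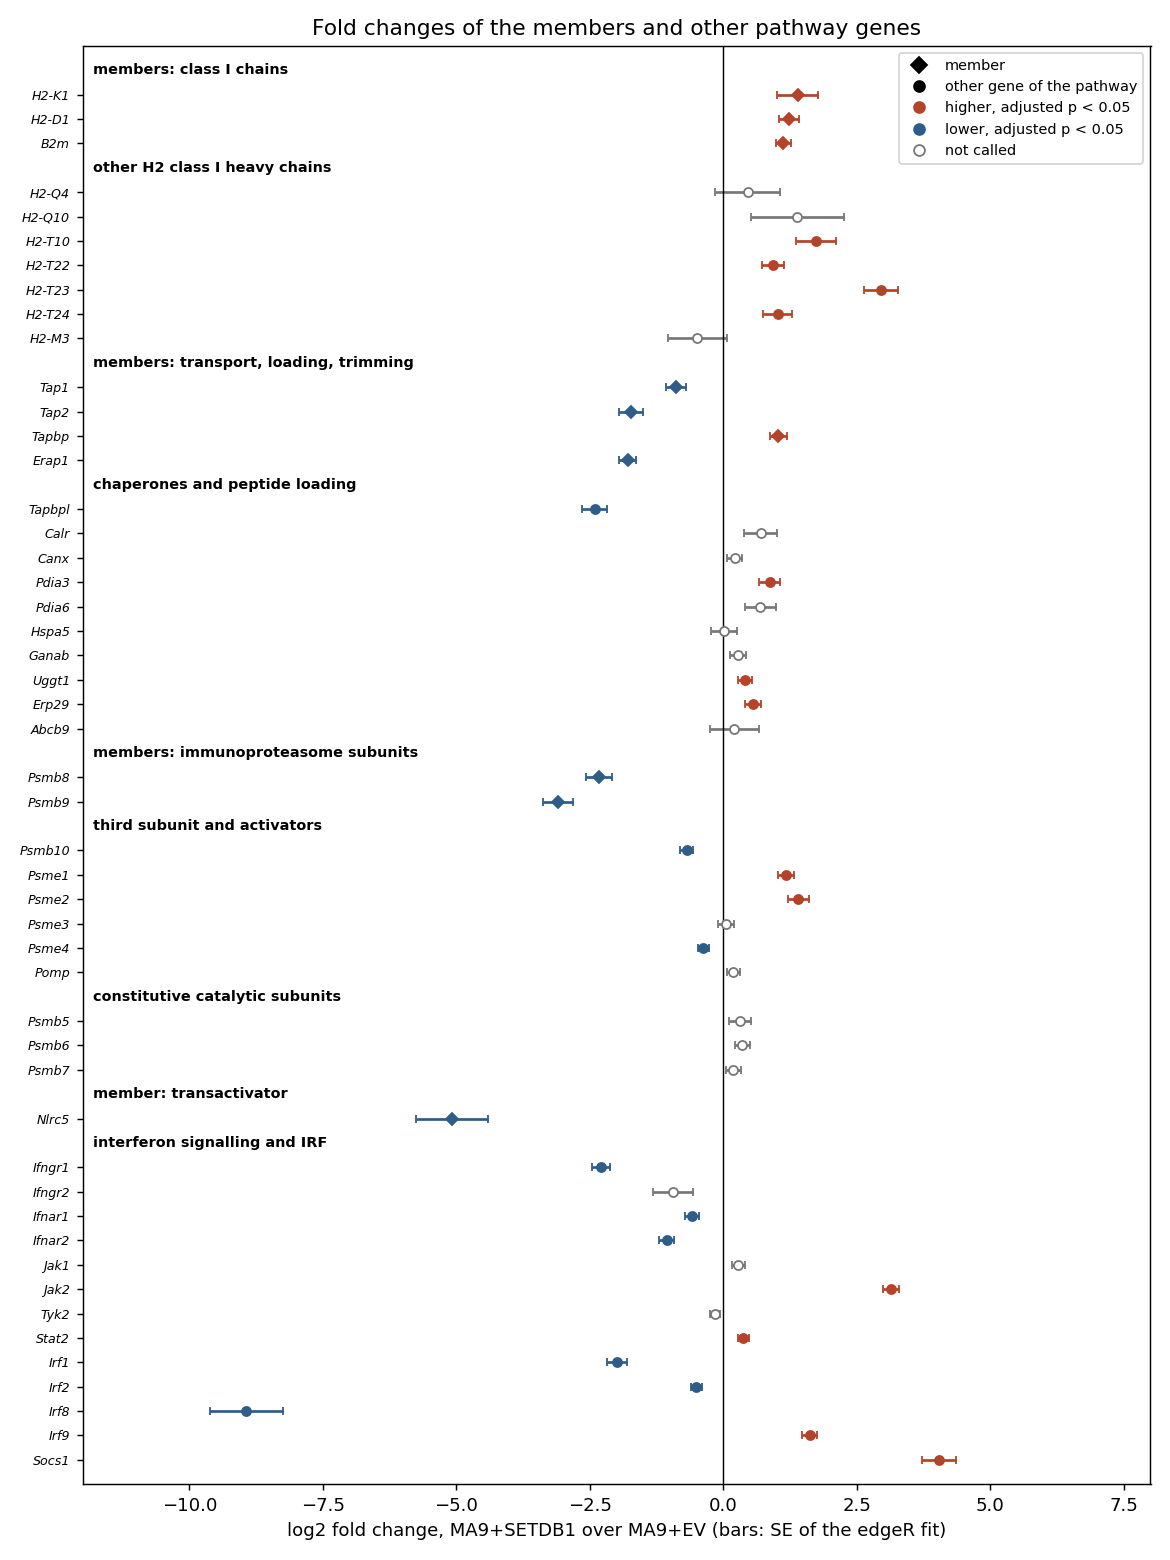
Log2 fold change of MA9+SETDB1 over MA9+EV with its SE for the 10 members (diamonds) and a selection of other tested genes of the pathway (circles), grouped by role, red for higher, blue for lower and open for not called. The chain genes lie right of 0 and the immunoproteasome members left of it, with Psme1 and Psme2 at 1.17 and 1.41 beside Psmb10 at -0.69. Among interferon genes, Irf8, Ifngr1 and Irf1 lie left and Socs1, Jak2 and Irf9 lie right.

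NLRC5 acts at class I promoters with RFX, CREB/ATF and NF-Y proteins. Of 12 genes for these factors and their coactivators 11 were tested, with 4 called higher and 2 lower. The NF-Y subunit genes parted, Nfyb with a log2 fold change of 2.11 and Nfyc with -0.90 (edgeR adjusted p = 0.00326 and 0.00234), while Nfya was not called at 0.35. With the replicate block Nfya was called higher, at 0.36 (edgeR adjusted p = 0.0218). Creb1 was the other gene called lower, at -1.22 (edgeR adjusted p = 0.00530), and stayed called in every alternative. Atf1 was called higher, at 0.54 (edgeR adjusted p = 0.0141). That call was lost with library totals, with replicates 2 and 3 summed, and without replicate 2 or 3 of either arm. Ep300, a histone acetyltransferase gene, was higher by 0.85 (edgeR adjusted p = 0.00268), a call lost with replicates 2 and 3 summed, as was that of Nfyc. Rfx5 was at 33.8 ± 9.62 CPM in MA9+SETDB1 and 21.7 ± 2.03 CPM in MA9+EV (SD, n = 3 each; log2 fold change 0.64, edgeR adjusted p = 0.0408). That call was lost without any 1 of the MA9+EV libraries, with upper-quartile scaling and with library totals (adjusted p up to 0.185 over all alternatives). The class II transactivator gene Ciita had 2 counts in MA9+SETDB1 and 1 in MA9+EV.

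Interferon signalling genes divided, with 4 of 14 called higher and 7 lower. With the replicate block Ifngr2 was also called lower and Jak1 higher (edgeR adjusted p = 0.0436 and 0.0477). Ifngr1, the ligand-binding chain of the interferon gamma receptor, had 120, 142 and 142 CPM in the MA9+SETDB1 libraries, against 530, 727 and 726 CPM in MA9+EV, and fell by 2.30 on the log2 scale (standard error 0.17, edgeR adjusted p = 7.35e-05). Irf1, a transcription factor gene that interferon gamma induces, had 7.78, 6.15 and 5.19 CPM in the MA9+SETDB1 libraries, against 25.2, 26.1 and 24.6 CPM in MA9+EV, and fell by 1.99 (standard error 0.19, edgeR adjusted p = 0.000226). Irf8, a regulator of monocytes and dendritic cells, had a summed count of 1 in MA9+SETDB1 and of 825 in MA9+EV, a ratio of 648 (95% exact counting interval 116 to 25630, counting error only). These 3 genes were lower in every MA9+SETDB1 library than in any MA9+EV library.

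Jak2, a kinase gene of the interferon gamma receptor and of many cytokine receptors, went the other way, with 443 ± 26.5 CPM in MA9+SETDB1 and 50.1 ± 7.80 CPM in MA9+EV (SD, n = 3 each; log2 fold change 3.15, edgeR adjusted p = 1.17e-05). Irf9 was also higher, at 50.7 ± 3.57 CPM in MA9+SETDB1 and 16.6 ± 2.40 CPM in MA9+EV (log2 fold change 1.61, edgeR adjusted p = 0.000177). Of 4 NF-kB genes, Nfkb1, Relb and Nfkb2 were called higher, with log2 fold changes of 0.96, 3.23 and 1.07, and Rela was not, at -0.07. Of 4 genes of PRC2, a complex known to silence class I genes in some tumours, Suz12 was lower by a log2 fold change of -0.85 (edgeR adjusted p = 0.00110), Ezh1 was higher by 0.61, and Ezh2 and Eed were not called at -0.34 and 0.24. With the replicate block Ezh2 was called lower (edgeR adjusted p = 0.0141), as it was with upper-quartile factors, with library totals and without MA9+SETDB1 replicate 1, and the call of Ezh1 was lost with library totals (edgeR adjusted p = 0.0677) and with replicates 2 and 3 summed. Over all pathway lists other than the 10 members, 26 of 85 tested genes were called higher and 20 lower, 54.1% in all, which is close to the 53.5% among all genes tested. With library totals as the only scaling 18 were higher and 24 lower. Without replicate 1 of both arms, where most of all genes tested were called, 51 were higher and 27 lower.

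Of the 10 members, 7 lie on chromosome 17, and 6 of them within the 1.27 Mb from H2-K1 to H2-D1. Psmb9, Tap1, Psmb8 and Tap2 follow each other there within 34.3 kb with no other tested gene between them, and all 4 were lower, whereas H2-K1 and H2-D1 at the ends of the region were higher. Tapbp, also higher, lies 66.7 kb outside it, beside H2-K1. Of the 57 other tested genes in the region, 20 were called higher and 10 lower, or 52.6%, beside 53.5% among all genes tested, with a median log2 fold change of 0.29. The nearest tested genes on either side of the block of 4 encode MHC class II proteins. They are H2-DMb1 and H2-Ob, with log2 fold changes of -1.89 and -2.19, which were not called (edgeR adjusted p = 0.0742 and 0.0941). Of the other class II genes in the region, chosen after their values were seen, H2-DMa averaged 3.27 CPM in MA9+SETDB1 and 42.1 CPM in MA9+EV and was lower (edgeR adjusted p = 0.000626). H2-DMb2 was also called lower, at 0.0389 CPM in MA9+SETDB1 and 2.26 CPM in MA9+EV, as was H2-Ab1, with 1 count in all in MA9+SETDB1 and 686 in MA9+EV. The MA9+EV libraries were uneven for H2-Ab1, which averaged 10.3 CPM in that arm. In the lowest of them the 10 dendritic cell markers, H2-Ab1 among them, summed to only 1.11 CPM. H2-Oa averaged 83.4 CPM in MA9+SETDB1 and 6.79 CPM in MA9+EV and was higher (edgeR adjusted p = 1.48e-05).

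**Figure D4:**
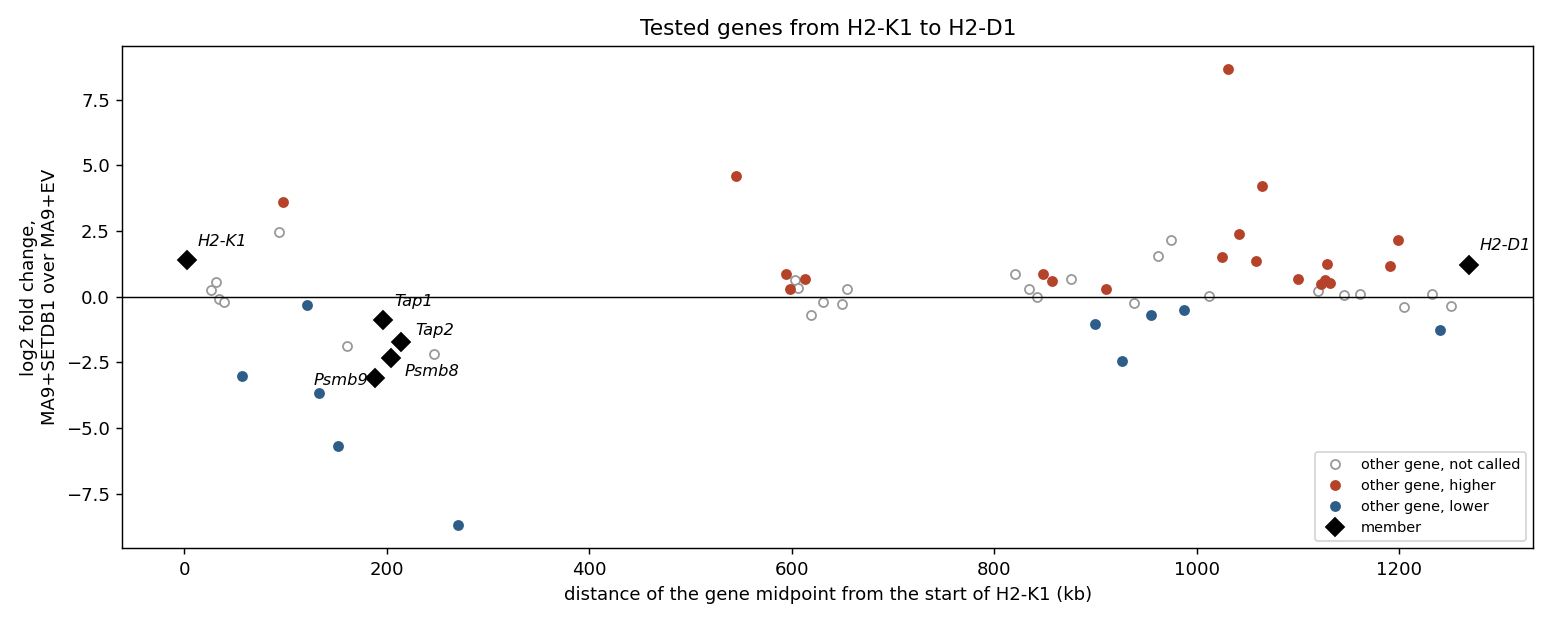
Log2 fold change of MA9+SETDB1 over MA9+EV for each tested gene from H2-K1 to H2-D1, by distance of its midpoint from the start of H2-K1. The 6 members there are black diamonds, and other genes are red for higher, blue for lower and open for not called. Psmb9, Tap1, Psmb8 and Tap2 sit together below 0, between -3.10 and -0.89, and H2-K1 and H2-D1 lie above 0 at 1.39 and 1.23.

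The arms also differed in markers of blood cell types, which express class I genes to different degrees. All 8 mast cell and basophil markers were called higher, their summed level being 11053 to 11586 CPM in MA9+SETDB1 and 49.6 to 85.0 CPM in MA9+EV. Kit, also a mast cell gene but listed with the leukocyte markers and not among these 8, went the other way. As given above, it was far lower in MA9+SETDB1. All 6 erythroid markers were called higher, with sums of 903 to 1049 CPM in MA9+SETDB1 and 0.743 to 1.51 CPM in MA9+EV. Of 8 granulocyte and monocyte precursor markers 2 were called higher and 5 lower, with sums of 873 to 965 CPM in MA9+SETDB1 and 15933 to 16684 CPM in MA9+EV. Among cells rich in class I, the macrophage genes C1qa, C1qb and C1qc reached at most 0.289 CPM in any library, while Adgre1 was higher in MA9+SETDB1, at 373 to 1223 CPM against 10.3 to 11.8 CPM in MA9+EV. The 6 macrophage markers summed to 374 to 1224 CPM in MA9+SETDB1 and 38.2 to 72.6 CPM in MA9+EV, led by Adgre1 in MA9+SETDB1 and by Vcam1 in MA9+EV, with 1 called higher and 2 lower of 3 tested. The 10 dendritic cell markers summed to 10.0 to 13.0 CPM in MA9+SETDB1 and 1.11 to 16.6 CPM in MA9+EV, with 3 called higher and 1 lower of 4 tested, and Xcr1, Siglech and Cd209a were at 0 in all 6 libraries. The 5 B cell markers summed to at most 4.01 CPM and the 6 T and NK cell markers to at most 3.23 CPM in any library, with Ms4a1, Pax5, Cd3e, Cd8a and Ncr1 at 0. The 5 stromal and endothelial markers, of which leukocytes share Pecam1, summed to 162 to 216 CPM in MA9+SETDB1 and 230 to 365 CPM in MA9+EV. Pecam1 was lower and made up most of these sums, while Pdgfrb was higher, at 35.4 to 82.4 CPM in MA9+SETDB1 against 0.0413 to 0.101 CPM in MA9+EV. The part of these differences in the values of the 10 members was not tested.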

How the data were processed

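The deposited values are raw read counts per gene from HTSeq-style files, 1 per library, whole numbers without normalization, as the authors deposited them. Per the labels, strand-specific poly-A libraries were made. The submitters' processing notes name GRCm38, STAR 2.6.0c and HTSeq 0.11.0 among other tools, without role or order. The 5 summary lines of each file, 24.6% to 26.3% of entries, entered neither library sizes nor tests. Symbols came from a table of identifiers (52480 matched by versioned and 1599 by stable identifier, 67 unmatched), coordinates and promoter sequences from RefSeq on GRCm38.p6.

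Groups follow the sample titles. Genes were filtered with filterByExpr, scaled by TMM and compared in edgeR 4.0.16 (R 4.3.3) by its quasi-likelihood test, MA9+SETDB1 over MA9+EV, with Benjamini-Hochberg adjustment over 12986 genes and a threshold of 0.05. CPM were computed from TMM-scaled library sizes, and before that scaling 1 count is worth 0.0443 to 0.0553 CPM. Standard errors were derived from the F statistic. Nothing says that the libraries came from separate cultures, so p-values reflect only how these libraries vary, which may be technical. The common biological coefficient of variation came to 0.244. The procedure was tested on simulated data with the same dispersion for all genes and no shift of replicate 1, unlike the libraries here. Ratios within a library were compared by an exact permutation test (SciPy 1.17.1). Alternatives were DESeq2 (1.42.0), other scalings, no filter, the replicate block, and libraries left out or summed.

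The members, gene lists, motifs and tests were chosen with earlier results of these data known. Named were all members, up to 3 genes per list with the smallest p, other called genes of short lists, and further genes chosen after their values were seen. Single genes of the fixed lists that the rule would name are not all reported here. Same-numbered replicates of the arms deviated together (correlations 0.257, 0.196 and 0.169 across genes), which meets the rule used for pairing. The test behind the printed values has no block, and the fit with the replicate number as a block is an alternative. Replicates 2 and 3 of opposite arms also correlated (0.203 and 0.177), so the match by number shows mainly for replicate 1.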

Additional observations from a re-analysis of the deposited data

How the results depend on the processing

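Over 14 alternatives the 10 members gave 140 values, of which 135 kept their direction and their side of the threshold, 5 kept their direction and lost the call (4 for H2-K1 and 1 for Tap1), and 0 reversed. Leaving out a library gave 3 to 4 members higher and 6 lower, 2992 to 4231 genes higher and 2727 to 4063 lower in all, and 17 to 40 pathway genes higher and 17 to 23 lower. The count of 26 pathway genes higher was 40 without MA9+SETDB1 replicate 1 and 17 without MA9+EV replicate 3. With replicates 2 and 3 of each arm summed, 2292 genes were higher and 1928 lower in all, and 12 and 12 of the pathway, with fewer samples by construction. With replicate 1 of both arms left out, 5314 genes of 13380 tested were higher and 5285 lower in all, and 51 and 27 of the pathway. Leaving out a library gave log2 differences of -2.75 to -2.47 for Psmb8 to Psmb5, -3.64 to -3.24 for Psmb9 to Psmb6, -0.94 to -0.81 for Psmb10 to Psmb7 and -0.41 to 0.0073 for B2m to its heavy chains, the last turning without MA9+SETDB1 replicate 3.

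Library totals as the only scaling moved the median log2 fold change of all genes to -0.24 and gave 2825 genes higher and 4585 lower, against 3554 and 3397 with TMM, and 18 pathway genes higher and 24 lower, but all 10 members kept their calls. With the replicate number as a block 3791 genes were higher and 3761 lower, with 4 members higher and 6 lower, and no call of a member changed. Of the pathway, 28 were higher and 22 lower with the block, which changed the calls of Psmb6, Nfya, Ezh2, Uggt1, Ifngr2 and Jak1. Paired by number, the ratios had exact two-sided p of 0.25, the smallest that 3 pairs allow, or 0.5 for B2m. Low counts limit the fold changes of Nlrc5, Irf8, Azgp1, Procr and H2-Ab1, each with 4 or fewer counts in 1 arm.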

Other observations

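By a distance of mean-centred log2 CPM over the 6 libraries, among 8810 other genes averaging 10 CPM or more, the 3 genes most like B2m were Psme1 (distance 0.108), the RAS effector gene Rassf5 (0.108) and the guanine nucleotide exchange factor gene Trio (0.149). Their log2 fold changes were 1.17, 1.08 and 1.01. The 3 most like Psmb9 were Glyat, the glycine N-acyltransferase gene (0.318), Retsat, the retinol saturase gene (0.337), and Arl11, a small GTPase gene (0.376). Glyat stood at 4.82 ± 0.650 CPM in MA9+SETDB1 and 42.0 ± 8.13 CPM in MA9+EV (SD, n = 3 each), Retsat at 12.3 ± 2.26 CPM in MA9+SETDB1 and 93.3 ± 20.9 CPM in MA9+EV.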
